A study of Mus musculus with 32 samples.

Results

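The response of control endothelial cells (ECs) to interferon gamma (IFNγ) was read from 8 of the 32 bulk RNA-seq libraries of the series. The members were chosen by treatment label, as the 4 libraries labelled si-control + IFN and the 4 labelled si-control, and every gene was taken whatever its values. The study silenced Dnmt1, the gene of the maintenance DNA methyltransferase, in mouse lung ECs and exposed the cells to inflammatory cytokines. Its 8 groups of 4 libraries combine a control siRNA or a Dnmt1-targeting siRNA (si-dnmt) with no cytokine, TNF, IFNγ or both. The cells were Veravec, a mouse lung EC line grown on plates in medium with serum and added VEGF, so that the values are those of 1 cultured line. Both groups compared here received the control siRNA in 2 transfections, and 1 of them was then given IFNγ at 1000 U/mL for 16 h. The TNF group used beside them had the same transfections and TNF at 10 ng/mL for the same time.

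IFNγ is the cytokine that activated T cells and natural killer cells release. It binds a receptor made of Ifngr1 and Ifngr2 chains, whose attached kinases Jak1 and Jak2 carry the signal on. Target promoters hold gamma-activated sequences (GAS), which mediate the first wave of transcription, and interferon-stimulated response elements (ISRE), which induced factors such as Irf1 bind. In ECs the cytokine is known for inducing antigen presentation, T cell-attracting chemokines and inhibitory ligands on the vessel wall.

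The 8 libraries held between 18749380 and 22146647 counts, and mitochondrial genes took 3.25% to 5.77% of them. EC markers were high in both groups, with Cdh5 at 2169, 2880.5, 1508 and 1557 CPM (a count scaled to the size of its library) in si-control replicates 1 to 4 and at 1989.6, 2364, 1305 and 1471 CPM with IFNγ. The pan-leukocyte gene Ptprc had at most 2 counts in any of the 8 libraries, and Cd3e, Adgre1 and Nkg7 had 0 counts in all 8. The summed level of the 10 leukocyte markers was 191 to 228 CPM in si-control and 143 to 188 CPM with IFNγ, nearly all of it from Cd68 and Lyz2, and of the 3 that could be tested 1 (Csf1r) was called lower. The macrophage gene Cd68 was at 79.7, 93.6, 160.4 and 165 CPM in si-control and at 72.4, 82.9, 121 and 127 CPM with IFNγ. Lyz2, a lysozyme of myeloid cells, was at 110.3, 133, 43.6 and 45.3 CPM and 80.0, 104, 21.8 and 25.1 CPM and was called lower with the replicate block described next (adjusted p = 0.00487). Dnmt1 itself was not silenced in these groups, with a mean of 120.1 ± 35.3 CPM in si-control and 129.7 ± 49.9 CPM with IFNγ (SD, n = 4). Replicates 3 and 4 stood apart from replicates 1 and 2 in both groups along the second principal component, which carried 29.8% of the variance beside 47.6% for the component that separated the treatments. IFNγ and si-control libraries of the same number deviated together, as did those of different numbers within replicates 1 and 2 and within 3 and 4, so values from a fit with the replicate number as a block are given where they change a call. The labels call the replicates biological but do not say what each number shares, so p-values measure the spread between these samples. In bulk RNA, fewer cells of a type and less RNA per cell cannot be told apart.

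Stretches from 8 promoters of genes that rose are shown because they carry the letters of the 2 elements named above, which are the binding sequences of the factors in this pathway. Each stretch is 80 bases, read 5′ to 3′ on the gene's strand from RefSeq promoters of build GRCm38. Capitals mark every match to TTCNNNGAA (GAS) or, in either orientation, to GAAA, any 2 bases and GAAA (ISRE).
Irf1, chr11:53769894-53769973, plus strand, GAS at -90: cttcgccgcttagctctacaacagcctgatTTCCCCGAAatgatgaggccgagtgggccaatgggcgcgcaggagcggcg
Irf8, chr8:120736168-120736247, plus strand, a pair of GAS matches: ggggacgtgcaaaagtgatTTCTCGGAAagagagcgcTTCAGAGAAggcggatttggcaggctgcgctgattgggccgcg
Socs1, chr16:10785567-10785646, minus strand, overlapping ISRE matches: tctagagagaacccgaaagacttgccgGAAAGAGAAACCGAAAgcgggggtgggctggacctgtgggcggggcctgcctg
B2m, chr2:122147527-122147606, plus strand, ISRE at -139: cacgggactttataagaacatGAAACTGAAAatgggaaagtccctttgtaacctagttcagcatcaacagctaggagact
Gbp2, chr3:142620563-142620642, plus strand, ISRE in the reverse form at -59: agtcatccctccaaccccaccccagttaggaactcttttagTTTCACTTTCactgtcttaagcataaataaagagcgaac
Gbp5, chr3:142496854-142496933, plus strand, GAS at -52: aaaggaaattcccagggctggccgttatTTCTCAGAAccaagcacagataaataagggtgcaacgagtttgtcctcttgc
Igtp, chr11:58199476-58199555, plus strand, GAS at -45 and ISRE at -34: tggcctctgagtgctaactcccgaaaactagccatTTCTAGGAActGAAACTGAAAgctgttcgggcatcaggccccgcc
Cxcl10, chr5:92349040-92349119, minus strand, ISRE at -213: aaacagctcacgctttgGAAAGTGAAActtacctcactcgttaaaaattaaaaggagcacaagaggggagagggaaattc
Positions count back from the annotated start. Of the 32851 promoter windows in the table, all of the same length, 8.30% held a GAS match and 3.44% an ISRE match.

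Between the groups, 2195 of 15254 genes tested passed an adjusted p of 0.05 in edgeR's quasi-likelihood test, which is 14.4%. More genes rose than fell with IFNγ: 1299 genes (8.52%) were called higher and 896 (5.87%) lower. These shares are the background for the counts of list members called below. The rises were also the larger changes. Their median log2 fold change was 0.93 against -0.62 for the falls, while the median over all genes tested was -0.0082. A change of at least 2-fold was seen in 617 genes called higher and 248 called lower, and one of at least 10-fold in 152 and 10 genes. Counts of the genes called higher by at least 2-fold made up 2.04% to 2.28% of a si-control library and 8.26% to 11.7% of an IFNγ library. All 4 IFNγ libraries lay above all 4 si-control libraries for 1394 genes (9.14% of those tested) and below them for 1041 (6.82%), the background for every statement on overlap below. With the replicate block 1917 of the 15254 genes were called higher and 1933 lower, the background for the block counts of lists below.

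**Figure D1:**
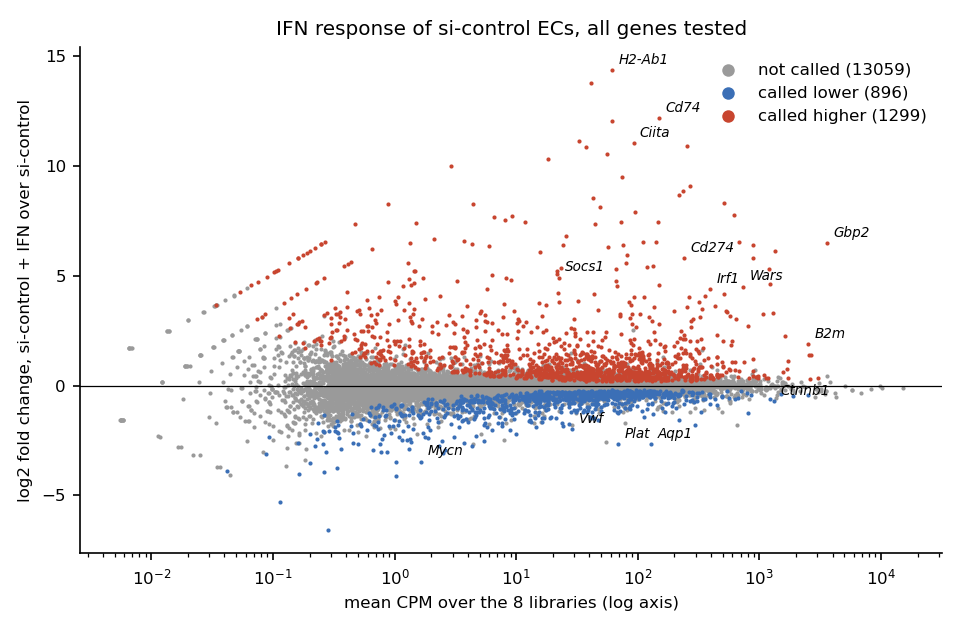
Each point is 1 of the 15254 genes tested, with its mean CPM over the 8 libraries on a log axis and its log2 fold change, si-control + IFN over si-control. The 1299 genes called higher (red) reach above 10 on the log2 scale and include Ciita, Cd74 and H2-Ab1, and the 896 called lower (blue) have a median of -0.62.

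Receptor chains changed little, and Jak2 and Stat2 rose. Ifngr1, the ligand-binding chain, fell from 40.3, 48.7, 37.7 and 38.7 CPM in si-control replicates 1 to 4 to 31.7, 34.5, 29.2 and 27.2 CPM with IFNγ, a log2 change of -0.43 ± 0.11 (SE, adjusted p = 0.00736). The groups did not overlap. Ifngr2, the signalling chain, had a log2 difference of -0.39 ± 0.15 that missed the threshold (adjusted p = 0.0817) and passed it as a fall with the replicate block (adjusted p = 0.00172). Jak1 differed by 0.20 ± 0.13 (adjusted p = 0.358, or 0.0236 with the block). Jak2 stood at 41.1, 47.4, 47.2 and 54.6 CPM without cytokine and at 164, 155, 169 and 142 CPM with it, a 3.31-fold rise. Stat2, a factor of type I interferon signalling, rose 2.16-fold, and Stat3, a transducer of interleukin-6 family cytokines, rose 1.60-fold. The call of Stat3 was not kept without si-control replicate 3 or 4 or without IFNγ replicate 1 or 2 (adjusted p up to 0.0932). Of the 11 genes of receptor and JAK-STAT signalling, 4 rose, 1 fell and 6 did not pass, with a median log2 fold change of 0.27.

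Brakes on the pathway rose in part. Socs1, the inhibitor that binds Jak1 and Jak2 and whose promoter is printed above, was at 0.751, 0.795, 2.59 and 1.52 CPM in si-control and at 44.0, 50.4, 31.7 and 47.4 CPM with IFNγ. That is a log2 rise of 4.91 ± 0.30 (adjusted p = 2.60e-13), with no overlap. Socs3, a brake on Stat3, rose 2.57-fold with overlapping groups (adjusted p = 0.0460). That call was not kept without si-control replicate 3 or 4 or without IFNγ replicate 1 or 2 (adjusted p up to 0.171). Ptpn2, a phosphatase that acts on Jak1, rose 1.66-fold. Usp18, which removes the ubiquitin-like protein Isg15 and restrains the type I receptor, had levels of 51.6, 33.2, 69.0 and 66.2 CPM without and 182, 192, 74.1 and 81.7 CPM with IFNγ. Its rise was carried by replicates 1 and 2, where the log2 fold change was 2.16, whereas that of replicates 3 and 4 was 0.20 and did not pass on its own. Of 13 brakes tested, 5 rose, 0 fell and 8 did not pass. Among those not called were the Pias genes. Socs2 had a log2 difference of -0.39 ± 0.45 (adjusted p = 0.663) and was called lower with the block (adjusted p = 0.0119).

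Interferon regulatory factors (IRFs), the DNA-binding proteins of the ISRE, rose in 5 of 7 tested members. Irf1 went from 40.7, 42.0, 32.6 and 27.8 CPM to 839, 918, 595 and 662 CPM, a 21.1-fold rise of almost the same size in replicates 1 and 2 (log2 4.43) and in replicates 3 and 4 (log2 4.38). Irf8, best known as a factor of myeloid cells, rose from 42.1, 42.9, 25.2 and 26.7 CPM to 432, 475, 248 and 294 CPM, and its promoter holds the pair of GAS matches shown above. TNF left Irf8 at 26.0 ± 10.5 CPM (SD, n = 4). Irf2, which competes with Irf1 for its sites, rose 2.02-fold, Irf7, the amplifier of type I interferon genes, 2.05-fold, and Irf5, a factor of toll-like receptor signalling, 2.85-fold from under 1 CPM. The call of Irf7 was not kept without si-control replicate 2 or without IFNγ replicate 1 or 2 (adjusted p up to 0.0886). Irf3 and Irf9 did not pass, with log2 differences of 0.10 ± 0.11 and -0.02 ± 0.09. Irf4 was too low to be tested.

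**Figure D2:**
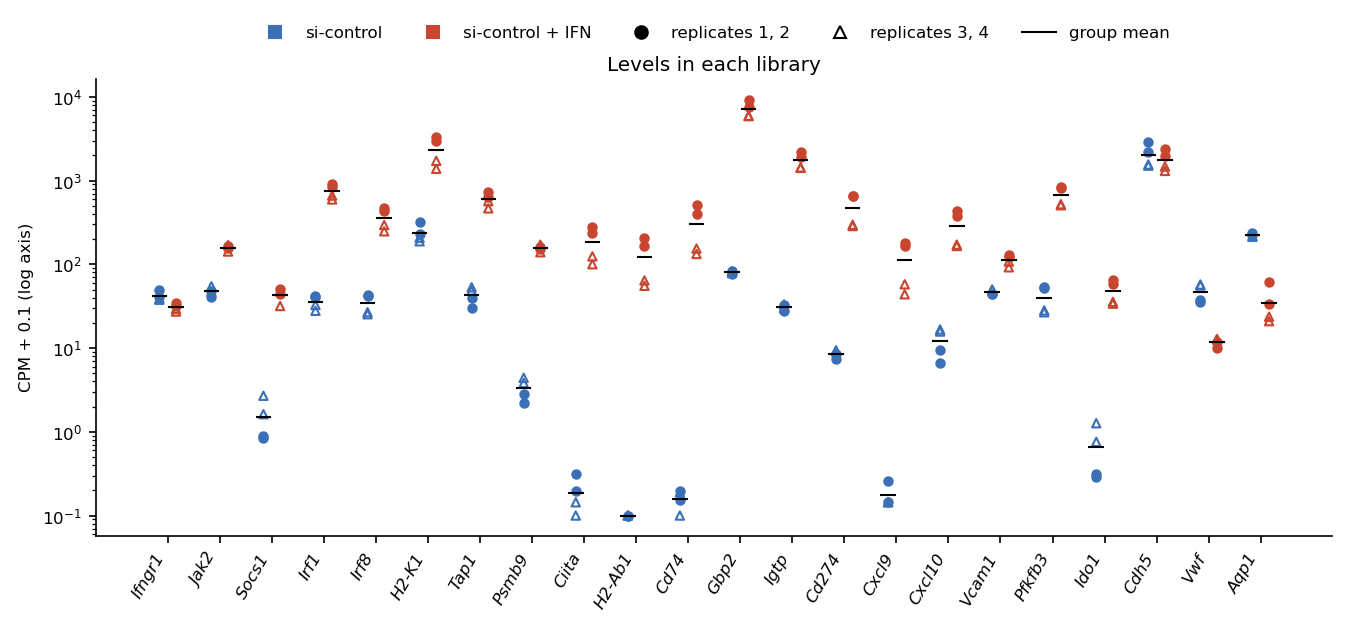
Levels of 22 genes in each library, as CPM + 0.1 on a log axis, with si-control in blue and si-control + IFN in red. Circles are replicates 1 and 2, triangles replicates 3 and 4 and bars the group means, and the groups separate for Jak2 and the genes to its right as far as Ido1, whereas those of Cdh5 overlap and Vwf and Aqp1 are lower with IFN.

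Every tested member of the classical and nonclassical major histocompatibility complex (MHC) class I list rose, 11 of 11, with a median log2 fold change of 3.02. H2-K1, a classical heavy chain, was at 317, 232, 207 and 188 CPM in si-control and at 2963, 3272, 1381 and 1719 CPM with IFNγ. The other classical chain measured, H2-D1, rose 4.73-fold, and B2m, the light chain all of them need, 3.73-fold. Nonclassical chains included the widest changes: H2-Q7 went from 2.58 ± 0.185 CPM to 159.6 ± 108 CPM (SD, n = 4), and H2-T23, the chain that presents class I leader peptides, rose 16.5-fold. H2-Q6 and H2-Q7 are near-identical copies, so their counts can be split between them and each fold is uncertain. With IFNγ, replicates 3 and 4 lay below replicates 1 and 2 for H2-K1 and H2-D1.

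The machinery that makes and loads class I peptides rose with them. Tap1, a subunit of the peptide transporter, stood at 39.0, 30.2, 53.0 and 48.0 CPM in si-control and at 638, 723, 466 and 567 CPM with IFNγ, a log2 rise of 3.81 ± 0.20 (adjusted p = 1.63e-14). Its partner Tap2 rose 9.56-fold, the loading chaperones Tapbp and Tapbpl 4.14-fold and 8.92-fold, and Erap1, which trims peptides in the endoplasmic reticulum, 4.33-fold. Nlrc5, the transactivator of class I promoters, rose from 24.4, 18.5, 20.1 and 20.6 CPM to 298, 327, 182 and 205 CPM. The general chaperones of the same compartment moved less. Pdia3 rose 1.41-fold and Calr 1.26-fold, and Canx did not pass (log2 0.17 ± 0.07). In all, 8 of 9 loading genes rose.

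Proteasome genes of the inducible form had larger fold changes than the constitutive ones, with medians of 2.94 and 0.30 on the log2 scale. The 3 catalytic subunits of the immunoproteasome and the 2 chains of its activator all rose. Psmb9 was at 2.72, 2.12, 4.31 and 3.72 CPM in si-control and at 152, 162, 139 and 172 CPM with IFNγ, a 48.2-fold rise. Psmb8 rose 16.1-fold and Psmb10 7.68-fold, and the activator chains Psme1 and Psme2 4.49-fold and 5.59-fold. The constitutive catalytic subunits that these replace were not called: Psmb5 differed by 0.03 ± 0.12, Psmb6 by 0.21 ± 0.11 and Psmb7 by 0.20 ± 0.13 on the log2 scale. Among the 16 genes of the constitutive list 8 rose. The widest of these was Psma5, an outer-ring subunit common to both forms, at 1.98-fold.

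The MHC class II chains and their transactivator mostly had very low counts in si-control and rose with IFNγ, all but H2-Oa and H2-Ob. Ciita, the master transactivator of class II promoters, was at 0.0938, 0.212, 0.0439 and 0 CPM in si-control replicates 1 to 4 and at 238, 278, 100.1 and 124 CPM with IFNγ, a log2 rise of 11.03 ± 0.91 (adjusted p = 3.27e-10) that was 11.82 without si-control replicate 2. H2-Ab1, a class II beta chain, had 0 counts in all 4 si-control libraries and 166, 208, 55.3 and 64.1 CPM with IFNγ, which is at least 871-fold higher when the low group is set to 3 counts per library. H2-Aa, an alpha chain, also had 0 counts without cytokine and was at least 578-fold higher. Cd74, the invariant chain, had at most 2 counts in a si-control library and 396, 513, 133 and 154 CPM with IFNγ, a ratio of 5125 with a 95% exact counting interval of 2196 to 15784. H2-Eb1 gave a ratio of 2160 (739 to 10478), and H2-DMb1, a chain of the peptide exchange factor, one of 2790 (772 to 23046). These intervals and bounds cover counting error only. Replicates 3 and 4 reached 133 and 154 CPM of Cd74, below the 396 and 513 CPM of replicates 1 and 2.

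Of the 14 class II genes tested, 10 rose and 0 fell, with a median log2 fold change of 7.53, or 6.02 when the 3 called genes with 0 counts in si-control are set at their bounds. Ctss, the protease that trims the invariant chain, rose from 0, 0.106, 0 and 0.179 CPM to 3.59, 3.85, 1.58 and 2.43 CPM, and H2-DMa rose 113-fold. Of the 3 constitutive class II promoter factors, Rfx5 rose 1.50-fold, and Rfxap and Rfxank did not pass (log2 -0.41 ± 0.17 and -0.08 ± 0.14). H2-Oa, a chain of the inhibitor of peptide exchange, had 0 counts in si-control and at most 2 with IFNγ, and H2-Ob was too low to be tested. The thiol reductase Ifi30 did not pass (log2 -0.39 ± 0.28), with a fall under the replicate block (adjusted p = 0.0369).

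All 11 guanylate-binding proteins (GBPs) and all 12 immunity-related GTPases (IRGs) tested rose. Both families attack vacuoles of intracellular pathogens. Gbp2 stood at 76.3, 82.2, 78.7 and 82.6 CPM without IFNγ and at 7600.4, 9241, 5886 and 5951 CPM with it, a log2 rise of 6.49 ± 0.24 (adjusted p = 5.45e-18). Gbp10 rose 315-fold, Gbp4 216-fold, Gbp8 236-fold and Gbp5, the inflammasome-linked member, 84.6-fold. The smallest rise in the family was that of Gbp9, at 4.98-fold, from 149 ± 8.13 CPM. The list medians were 6.49 for GBPs and 4.95 for IRGs on the log2 scale.

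Among the IRGs, Igtp was at 33.0, 27.2, 33.1 and 30.0 CPM in si-control and at 1908, 2208, 1418 and 1436 CPM with IFNγ, and its promoter above holds both elements side by side. Iigp1 (Irga6) rose from 91.6, 61.0, 116 and 121 CPM to 3187, 2804, 1929.7 and 1566 CPM. The regulatory members Irgm1 and Irgm2, which hold the effector GTPases inactive on host membranes, rose 6.58-fold and 12.4-fold. Gm12250 (Irgb10) went from 0.986 ± 0.738 CPM to 474 ± 109 CPM (SD, n = 4). Together the 2 families took 0.108% to 0.137% of all counts in si-control and 2.18% to 3.26% with IFNγ. Several have near-identical neighbours (Tgtp1 and Tgtp2, 9930111J21Rik1 and 9930111J21Rik2, and GBP paralogs), whose separate folds are uncertain. The very large inducible GTPase Gvin1, which shares reads with its copy Gm4070, rose 2.59-fold.

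Antiviral interferon-stimulated genes, which are best known as targets of type I interferon, rose less and less evenly. Of 32 tested, 26 rose and 0 fell, with a median log2 fold change of 1.24, and 31 rose with the replicate block. Zbp1, a sensor of Z-form nucleic acid, was the widest at 3.43, 2.76, 3.87 and 2.06 CPM against 306, 351, 225 and 245 CPM. Samhd1, which depletes nucleotides for viral replication, rose 18.1-fold, and Oas3, an activator of RNase L, 9.57-fold. Ifit2, which binds viral RNA, was at 52.9, 36.5, 90.5 and 91.6 CPM without and 864, 762, 395 and 324 CPM with IFNγ. Mx1, a dynamin-like GTPase, rose from 1.36, 0.795, 3.38 and 3.41 CPM to 29.9, 26.5, 8.18 and 9.83 CPM, and Oas2 rose 5.65-fold.

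For several of these genes the fold changes of the replicate pairs were far apart. Isg15 had a log2 fold change of 1.88 in replicates 1 and 2 and of 0.53 in replicates 3 and 4. Rsad2 (viperin) stood at 81.9, 66.4, 107 and 115 CPM in si-control and at 386, 332, 97.1 and 96.5 CPM with IFNγ, so that only IFNγ replicates 1 and 2 lay outside the si-control range. It was not called (adjusted p = 0.0537), nor was Ifit1 (adjusted p = 0.0596), whereas both were called higher with the block (adjusted p = 0.0451 and 0.0359). Over the list the median was 1.86 in replicates 1 and 2 and 0.58 in 3 and 4. In si-control, Ifit3 stood at 102, 64.9, 229 and 227 CPM, higher in replicates 3 and 4, and the same held for Mx1, Oas2, Rsad2 and Ifit1. The difference between the replicate pairs was not tested.

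**Figure D3:**
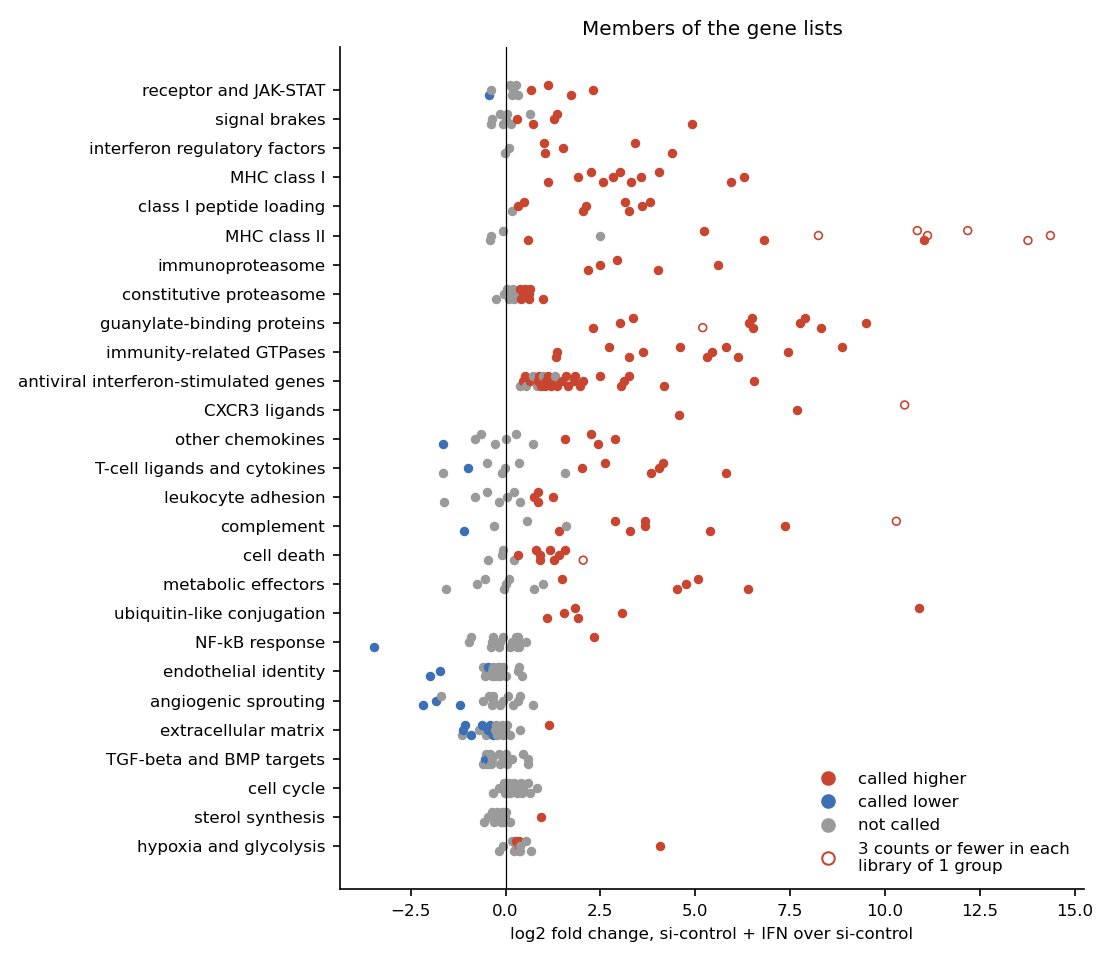
Log2 fold change, si-control + IFN over si-control, of every tested member of 27 gene lists, in red where called higher, blue where called lower and grey where not called. Open circles mark called genes with 3 counts or fewer in each library of 1 group, whose fitted values depend on the prior count. Uncalled genes that low, such as H2-Oa and Cybb, are filled, and their values depend on it too. The MHC, GBP and IRG lists lie far to the right of the list medians near 0 for the NF-kB, sterol and endothelial lists.

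The 3 ligands of Cxcr3, which guide effector T cells, rose. Cxcl9 had at most 3 counts in a si-control library and 179.9, 167, 57.7 and 43.7 CPM with IFNγ, a ratio of 1591 (95% exact counting interval 731 to 4336). Cxcl10 went from 9.48, 6.57, 16.6 and 15.7 CPM to 381, 437, 172 and 165 CPM, and Cxcl11 from at most 4 counts to 24.0, 22.6, 2.67 and 3.56 CPM. Replicates 3 and 4 lay below replicates 1 and 2 for each ligand with IFNγ, most widely for Cxcl11. TNF gave 274 ± 56.5 CPM of Cxcl10 but 3.51 ± 0.606 CPM of Cxcl9 (SD, n = 4). The log2 difference, IFNγ over TNF, was 0.08 ± 0.27 for Cxcl10 (adjusted p = 0.868) and 4.99 ± 0.60 for Cxcl9 (adjusted p = 3.92e-07). In that comparison 4318 of 15254 genes, or 28.3%, were called in either direction, the background for the counts against TNF below.

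Of 11 other chemokine genes, a list that includes the receptor Ackr3, 4 rose and 1 fell with IFNγ. Against TNF, 10 were lower with IFNγ and 1 was higher, which was Ackr3 (log2 1.54, adjusted p = 0.00148). Cx3cl1 (fractalkine), a membrane-bound chemokine that captures monocytes, rose from 6.94, 11.98, 11.9 and 11.5 CPM to 39.3, 53.7, 48.1 and 60.9 CPM. Ccl5 rose 7.39-fold, Ccl7 5.39-fold and Cxcl16 2.94-fold. The neutrophil attractant Cxcl5 fell from 19.3, 30.6, 25.4 and 24.1 CPM to 3.98, 5.98, 10.8 and 11.1 CPM, and TNF put it at 187 ± 24.6 CPM. Ccl2, the main monocyte attractant, was at 1077, 1039, 344 and 346 CPM and 1389.9, 1627, 782 and 818 CPM and was not called (adjusted p = 0.119, or 0.00151 with the block). Cxcl1 and Cxcl2 did not pass, with log2 differences of -0.64 ± 0.44 and -0.81 ± 0.69.

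Ligands and cytokines that act on T cells were led by Cd274 (PD-L1), the inhibitory ligand of PD-1. It was at 7.27, 8.32, 9.32 and 9.06 CPM in si-control and at 649, 661, 297 and 286 CPM with IFNγ, a log2 rise of 5.80 ± 0.29 (adjusted p = 8.21e-15). Il15 and its presenting receptor chain Il15ra, which sustain memory T and natural killer cells, rose 4.05-fold and 6.17-fold. Il18bp, the soluble antagonist of interleukin-18, rose 17.7-fold and Tnfsf10 (TRAIL), a death ligand, 16.5-fold. Tnfsf4 (OX40 ligand), a co-stimulator, fell from 3.66, 5.14, 3.03 and 2.96 CPM to 1.63, 1.66, 2.67 and 1.40 CPM. The co-stimulators Cd80 and Cd40 were under 2 CPM in all 8 libraries and were not called, and Cd80 was called lower with the block (adjusted p = 0.0202, against 0.0547 without it). Cd86 and Pdcd1lg2 were too low to be tested. Of 13 tested, 6 rose and 1 fell.

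Adhesion molecules for leukocytes rose modestly, 4 of 11, with a list median of 0.21. Vcam1, which binds T cell and monocyte integrins, went from 44.5, 43.5, 49.8 and 49.6 CPM to 129, 121, 108 and 92.1 CPM, a 2.40-fold rise without overlap. The same gene reached 801 ± 45.9 CPM with TNF. Icam1 rose 1.80-fold, with adjusted p = 0.00667 in the fit over all 32 libraries and 0.0588 without IFNγ replicate 2. From the 8 libraries alone it was not called (adjusted p = 0.151). Cd47, the do-not-eat-me signal, rose 1.79-fold. Icam2, a ligand of leukocyte integrins, rose 1.67-fold, a call not kept without si-control replicate 1, 2, 3 or 4 or without IFNγ replicate 1, 2 or 4 (adjusted p up to 0.106). Sele and Selp, the endothelial selectins, were not called (log2 -0.19 ± 0.25 and -0.50 ± 0.22). Of 18 genes of the NF-kB response, 1 rose (Lif, a cytokine of the interleukin-6 family, 5.01-fold), 1 fell (Csf3, a neutrophil growth factor) and 16 did not pass. With IFNγ 13 were lower and 0 higher than with TNF, a comparison that called 28.3% of all genes tested in either direction. With the block 2 of the 18 rose and 3 fell against si-control, beside 1917 and 1933 of all 15254 genes. From replicates 1 and 2 alone 1 of the 18 rose and 5 fell, beside 2176 and 1727 of all genes in that fit. From replicates 3 and 4 alone 8 rose and 2 fell, beside 1818 and 1533. The difference between these pairs was not tested. Tnfaip3 and Nfkbia, feedback inhibitors of NF-kB, differed by 0.27 ± 0.17 and -0.37 ± 0.22. The call of Csf3 (adjusted p = 0.0487) was not kept without si-control replicate 1 or 2 or without IFNγ replicate 1, 3 or 4 (adjusted p up to 0.315).

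Complement genes rose in 8 of 12 cases, with 1 lower and a median of 3.09. C4b, of the classical pathway, went from 0.751, 0.795, 0.483 and 0.135 CPM to 131, 131, 39.1 and 50.9 CPM. Serping1, the C1 inhibitor, had at most 1 count in a si-control library and 41.6, 52.6, 24.4 and 28.9 CPM with IFNγ, a ratio of 1578 (95% exact counting interval 436 to 13035). The proteases C1ra, C1s1 and C2 rose 12.9-fold, 41.9-fold and 9.77-fold, and Cfb of the alternative pathway 7.42-fold. C1ra and C1rb are close copies. C3 stood at 265, 342, 32.7 and 35.3 CPM and 866, 933, 113 and 128 CPM, where replicates 1 and 2 lay far above 3 and 4 in both groups. It was not called without the replicate block (adjusted p = 0.239) and was called higher with it (adjusted p = 7.28e-04). Cd59a, which blocks the membrane attack complex, fell from 48.3, 43.9, 37.7 and 44.0 CPM to 20.6, 21.1, 19.2 and 20.0 CPM.

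Metabolic effectors rose in 5 of 13. Ido1, which degrades tryptophan, went from 0.188, 0.212, 0.659 and 1.17 CPM to 64.3, 58.3, 33.8 and 35.5 CPM and stayed at 0.359 ± 0.114 CPM with TNF. Wars, the tryptophanyl-tRNA synthetase, rose from 54.4, 58.4, 70.0 and 66.7 CPM to 1539, 1738, 1156 and 1234 CPM, a log2 rise of 4.50 ± 0.15 (adjusted p = 4.79e-19). Acod1, which makes itaconate, rose from 1.74, 3.34, 0 and 0.135 CPM to 63.4, 77.3, 13.2 and 14.5 CPM, and its log2 change of 5.07 became 6.10 without si-control replicate 2. Nos2, the inducible nitric oxide synthase, was at 0.235, 0.583, 0 and 0.135 CPM in si-control and at 5.60, 16.1, 1.36 and 1.94 CPM with IFNγ, where replicate 2 held most of the group's sum. Its log2 rise of 4.77 was 3.66 without that library and 5.63 without si-control replicate 2. Nampt of NAD synthesis rose 2.80-fold. Ass1 of arginine synthesis (log2 0.09 ± 0.64) and the oxidase Nox4 (log2 0.02 ± 0.17) were not called. Pfkfb3, the activator of glycolysis in ECs, was at 53.0, 52.2, 28.1 and 26.6 CPM in si-control and 812, 839, 507 and 522 CPM with IFNγ, a 16.8-fold rise, and at 73.9 ± 12.8 CPM with TNF. The enzymes of the pathway itself moved little, with Aldoa at 1.28-fold and Pkm at 1.27-fold. Those calls were not kept without si-control replicate 4 or without IFNγ replicate 2 for Aldoa (adjusted p up to 0.111) and without si-control replicate 4 or without IFNγ replicate 1 or 2 for Pkm (adjusted p up to 0.0705). Of 14 genes of hypoxia and glycolysis 4 rose, and 10 rose with the replicate block, beside 1917 of all 15254 genes.

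All 6 genes of ubiquitin-like conjugation rose. Ubd (FAT10), a ubiquitin-like tag for the proteasome, went from 0.282, 0.212, 0.132 and 0.404 CPM to 729, 767, 268 and 262 CPM, a log2 rise of 10.91 ± 0.82. Uba7, Ube2l6 and Herc6, the activating, conjugating and ligating enzymes of Isg15, rose 2.92-fold, 3.76-fold and 8.34-fold. Of 13 cell death genes 9 rose and 0 fell. Mlkl, the pore former of necroptosis, rose from 73.8, 74.2, 96.0 and 93.6 CPM to 279.7, 262, 235 and 221 CPM. Gsdmd and Casp4 of pyroptosis rose 1.89-fold and 1.88-fold, and the death receptor gene Fas rose 2.25-fold. Ripk3, the kinase that activates Mlkl, was not called (log2 -0.08 ± 0.19).

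Outside these lists, the largest rises included a few further genes. Apol6, an apolipoprotein L family member, had at most 1 count in a si-control library and 149, 129, 105 and 104 CPM with IFNγ, a ratio of 5181 (95% exact counting interval 1434 to 42791). Mpeg1 (perforin-2), a pore-forming protein best known from macrophages, rose from 0.751, 0.371, 1.54 and 1.44 CPM to 599, 582, 283 and 268 CPM. Slamf8, a receptor of the SLAM family, had 0 counts without IFNγ and was at least 41.5-fold higher with it. Serpina3f, a serine protease inhibitor, rose 537-fold. With TNF, Mpeg1 was at 6.34 ± 1.41 CPM and Apol6 at 0.124 ± 0.0465 CPM (SD, n = 4).

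The falls were smaller than the rises. Aqp1, a water channel of capillary ECs, went from 225, 234, 213 and 219 CPM in si-control to 33.8, 60.7, 20.8 and 23.6 CPM with IFNγ, a log2 change of -2.68 ± 0.46 (adjusted p = 1.18e-04). Its level with TNF was 7.11 ± 4.00 CPM (SD, n = 4). Plat, the tissue plasminogen activator, fell from 195, 224, 27.9 and 31.5 CPM to 22.9, 27.3, 11.6 and 12.7 CPM. In the si-control group it differed several-fold between replicate pairs, and its log2 change was -3.03 in replicates 1 and 2 and -1.29 in 3 and 4. Mycn, a growth-promoting transcription factor, fell from 4.41, 4.35, 2.07 and 1.39 CPM to 0.112, 0.260, 0.327 and 0.378 CPM, whereas its mean with TNF was 9.11 ± 9.33 CPM.

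Grem1, an antagonist of bone morphogenetic proteins (BMPs), went from 4.08, 6.94, 3.16 and 3.59 CPM to 0.504, 0.312, 0.600 and 0.702 CPM, and Dkk2, an antagonist of Wnt signalling, from 4.04, 4.08, 5.71 and 4.71 CPM to 1.06, 0.312, 0.491 and 0.540 CPM. The groups did not overlap for either, which was a condition of naming them among the largest falls. Enpp2 (autotaxin), which makes lysophosphatidic acid, fell from 4.24 ± 2.72 CPM to 0.710 ± 0.570 CPM (SD, n = 4), a log2 change of -2.54 that was -3.21 without IFNγ replicate 2, and TNF put it at 54.5 ± 2.43 CPM. The membrane-bound protease Mmp15 fell to 0.162 of its level. Itga2, a collagen-binding integrin chain, was at 12.2, 18.0, 12.7 and 14.4 CPM, at 3.53, 3.02, 3.22 and 4.10 CPM with IFNγ and at a mean of 133 ± 30.1 CPM with TNF. At high levels, Ctnnb1 (beta-catenin) fell from 1823, 2025, 1352 and 1385 CPM to 1116, 1307, 791 and 858 CPM (adjusted p = 0.0105, or 0.0538 without si-control replicate 2). Nedd4, a ubiquitin ligase, fell from 2707, 3074, 2740.3 and 2932 CPM to 2248, 2150.4, 2189.7 and 2010.2 CPM without overlap.

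Of 22 EC identity genes tested, 0 rose, 3 fell and 19 did not pass, with a median log2 fold change of -0.21, where 5.87% of all genes tested were called lower. With the replicate block 9 fell and 1 rose, beside 1933 and 1917 of all 15254 genes. Vwf (von Willebrand factor) fell from 35.7, 37.0, 57.4 and 55.7 CPM to 11.7, 9.83, 12.7 and 12.6 CPM, a log2 change of -1.99 ± 0.27 (adjusted p = 2.91e-06). Nos3, the endothelial nitric oxide synthase, fell to 0.728 of its level with overlapping groups, and the arterial factor Sox17 to 0.303 (adjusted p = 0.0438). The call of Sox17 was not kept without si-control replicate 1 or 2 or without IFNγ replicate 1, 3 or 4 (adjusted p up to 0.156). Cdh5 and Pecam1, the junctional adhesion molecules of ECs, differed by -0.19 ± 0.23 and -0.20 ± 0.17 on the log2 scale and were not called. The growth factor receptor Kdr was lower in all 4 IFNγ libraries, 275, 273, 252 and 247 CPM against 327, 344, 334 and 348 CPM, and passed only with the block (adjusted p = 0.0188). Of the same 22 genes, 9 were higher and 0 lower with IFNγ than with TNF. That comparison called 28.3% of all genes tested in either direction.

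Genes of angiogenic sprouting fell in 3 of 16, with 0 higher and a median of -0.32. Esm1 (endocan) fell from 42.2, 37.7, 34.5 and 36.3 CPM to 10.1, 8.999, 12.2 and 11.1 CPM. Cxcr4 fell from 24.4, 27.1, 6.24 and 7.49 CPM to 4.37, 6.14, 1.53 and 2.21 CPM, each replicate pair at its own level, and Pgf (placental growth factor) fell to 0.432 of its level (adjusted p = 0.0492). These calls were not kept without si-control replicate 1 or 2 or without IFNγ replicate 3 or 4 for Cxcr4 (adjusted p up to 0.0847) and without si-control replicate 1 or 2 or without IFNγ replicate 1, 2, 3 or 4 for Pgf (adjusted p up to 0.176). Dll4, the Notch ligand of tip cells, stood at 31.6, 38.4, 7.87 and 8.61 CPM and 9.92, 10.6, 3.22 and 2.59 CPM and was called lower with the block (adjusted p = 4.52e-04) but not without it (adjusted p = 0.275). With the block 6 of the 16 fell and 2 rose, beside 1933 and 1917 of all 15254 genes. Angpt2 and Apln did not pass, with log2 differences of -0.32 ± 0.47 and -0.35 ± 0.29.

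Extracellular matrix genes fell in 7 of 21 and rose in 1, with a median of -0.28. With the block 11 fell and 1 rose, beside 1933 and 1917 of all 15254 genes. Col18a1, the source of endostatin, went from 1364, 1344, 1657 and 1505 CPM to 895, 1054, 802 and 1074 CPM, and the basement membrane proteoglycan Hspg2 from 1659, 1809.9, 1804 and 1639 CPM to 1171, 1495, 1061 and 1493 CPM. Col3a1, a fibrillar collagen, fell to 0.472 of its level. Most of the summed fibroblast marker level came from Col3a1, and that sum was 43.1 to 80.6 CPM in si-control and 23.6 to 38.4 CPM with IFNγ, with Lum, Dpt and Postn too low to be tested. Col4a1, the main vascular basement membrane collagen, was just outside the threshold (log2 -0.52 ± 0.18, adjusted p = 0.0506, and 1.21e-04 with the block). Col8a1, a short-chain collagen of vessel walls, rose from 162, 160.4, 265 and 275 CPM to 471, 445, 507 and 494 CPM. Of 17 TGF-beta and BMP genes 2 fell, the receptor Bmpr2 to 0.712 and the ligand Tgfb2 to 0.682 of their levels. Of all genes tested, 5.87% were called lower. With the block 4 of the 17 fell and 1 rose, beside 1933 and 1917 of all 15254 genes. Acta2, a smooth muscle and pericyte gene, was higher in each IFNγ library than in the si-control library of the same number, 24.9, 20.0, 67.4 and 55.0 CPM against 9.52, 6.94, 23.9 and 19.6 CPM. It was called with the block (adjusted p = 4.68e-06) and not without it (adjusted p = 0.0669).

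Cell cycle and sterol genes were set against the 14.4% of all genes tested that were called in either direction. None of 20 cell cycle genes was called by edgeR at the adjusted threshold, 3 had an unadjusted p under 0.05, 1 was called by DESeq2 and 3 were called higher with the block. Their median log2 fold change was 0.16. From replicates 1 and 2 alone 5 of the 20 were called higher and 3 lower, beside 2176 and 1727 of all genes in that fit. From replicates 3 and 4 alone 9 were called higher and 0 lower, beside 1818 and 1533. The difference between these pairs was not tested. Top2a, the mitotic topoisomerase, was at 179.9, 193, 394 and 411 CPM and 309, 287, 801 and 696 CPM (adjusted p = 0.0657, or 0.0215 with the block). Mki67 differed by 0.10 ± 0.28 on the log2 scale. Of 17 sterol genes 1 rose, and it was Ch25h, which makes the antiviral oxysterol 25-hydroxycholesterol rather than cholesterol (13.4, 13.6, 17.5 and 16.9 CPM against 28.2, 27.5, 30.2 and 30.7 CPM). The synthesis enzyme Sqle differed by -0.13 ± 0.31. Of the 17 sterol genes, 1 was called higher and 6 lower from replicates 1 and 2 alone, and 2 higher and 0 lower from replicates 3 and 4 alone.

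The fold changes were on the whole larger in replicates 1 and 2 than in 3 and 4. Among the genes changed at least 2-fold that could be fitted in both pairs, 607 called higher had a median log2 fold change of 2.31 in replicates 1 and 2 and of 1.68 in replicates 3 and 4. The rise was larger in replicates 1 and 2 for 496 of them, or 81.7%. For 235 genes called lower the medians were -1.53 and -1.27, and 61.3% fell further in replicates 1 and 2. Irf1, given above, had nearly equal fold changes in both. Whether the pairs differ in response was not tested, and what they share is not given in the labels.

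**Figure D4:**
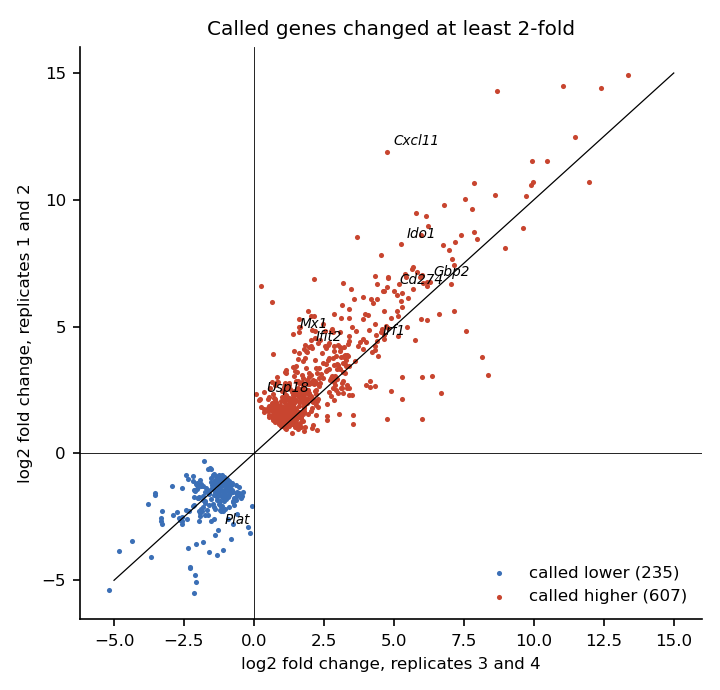
Log2 fold change, si-control + IFN over si-control, of each called gene changed at least 2-fold, in replicates 3 and 4 (horizontal axis) and in replicates 1 and 2 (vertical axis), with the line of equality. Of the 607 genes called higher (red) 81.7% lie above the line, Mx1, Ifit2 and Cxcl11 among them, whereas Irf1 lies on it.

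The motif matches moved with the size of the rise. Of the genes called higher, 957 of 1299 (73.7%) had a promoter in the table, with 1227 windows. A GAS match was found in 9.37% and an ISRE match in 9.78% of those windows. For genes that rose at least 2-fold the shares were 11.4% and 18.4%, and for those that rose at least 8-fold, with 143 windows, 20.98% and 25.9%. The windows of genes called lower held them in 6.38% and 2.35%, and those of genes tested but not called in 6.75% and 2.65%. These are descriptions of letters in a fixed window and not binding sites. No match was found in the windows of Cxcl9, Psmb9, Tap1, Cd274 and Pfkfb3, which says only that these letters are not there.

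**Figure D5:**
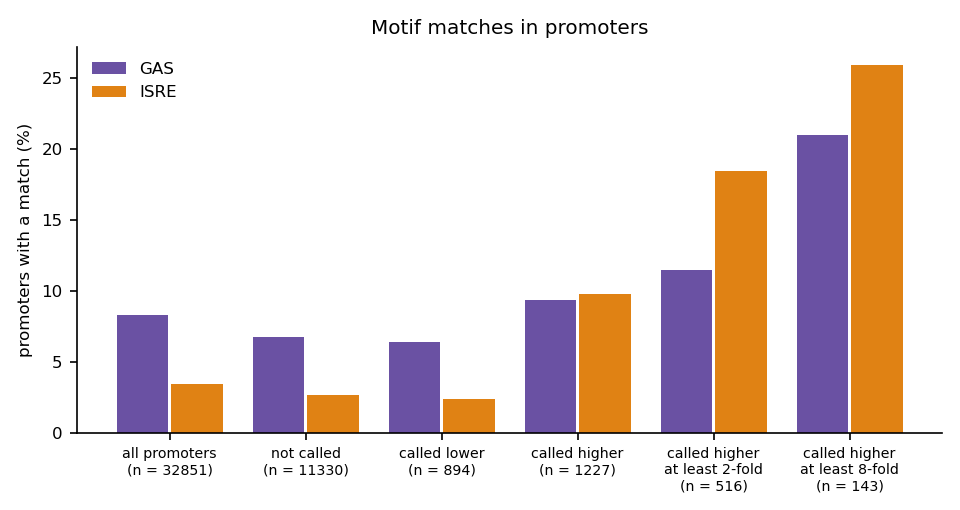
Share of promoter windows with a GAS match (purple) and with an ISRE match (orange), by the call of the gene, with the number of windows under each class. The ISRE bar goes from 3.44% of all promoters to 25.9% for genes called higher at least 8-fold and the GAS bar from 8.30% to 20.98%, whereas the bars of genes called lower are at 6.38% and 2.35%.

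The same cytokine was given to cells of the series with silenced Dnmt1, which allows the response to be set beside a separate set of libraries. Dnmt1 was at 8.92 ± 2.92 CPM in si-dnmt and at 8.43 ± 3.46 CPM in si-dnmt + IFN (SD, n = 4), against the means given above for the control groups. In those 8 libraries 1371 of 15254 genes, or 8.99%, were called, and 2861 with the replicate block. Of the 1299 genes called higher in si-control, 872 (67.1%) were also called higher in si-dnmt, which is 85.7% of its 1017. Of the 896 called lower, 273 (30.5%) were called lower in si-dnmt, or 77.1% of its 354. None was called in opposite directions, and the fold change had the same sign for 1293 of the 1299 and 881 of the 896.

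A test of the difference itself, the interaction of siRNA and IFNγ, called 7 genes, or 0.0459% of those tested, and 59 with the replicate block. In all 7 the rise was smaller in si-dnmt, and with the block the difference was negative for 56 genes and positive for 3. Zbp1 had the largest difference, -2.93 ± 0.41 on the log2 scale (adjusted p = 5.90e-04). Its level with IFNγ was 282 ± 57.6 CPM with the control siRNA and 294 ± 49.2 CPM with silenced Dnmt1, while without IFNγ it was 3.03 ± 0.789 CPM and 24.2 ± 14.5 CPM (SD, n = 4). Psmb9, the immunoproteasome subunit, was at 3.22 ± 0.982 CPM (si-control) and 9.18 ± 2.23 CPM (si-dnmt) without IFNγ and at 156 ± 13.8 CPM and 122 ± 12.9 CPM with it. Gbp2 was at 79.9 ± 2.97 CPM and 128 ± 40.1 CPM without IFNγ and at 7169.6 ± 1593 CPM and 4142 ± 706 CPM with it, the si-dnmt level being the lower one here. The remaining genes were Gm12250, Gbp8, Apol10b and Ube2l6.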

How the data were processed

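Bulk RNA-seq was available for 32 libraries, 8 groups of 4, of which 8 were compared here. The deposited values are raw counts per gene, which the authors made, according to the submitters' processing notes, by trimming with cutadapt 4.9, quality control with FastQC 0.12.1 and MultiQC 1.27.1, and counting with featureCounts. DESeq2 is also named in those notes. For the aligner, genome build, annotation and strand setting the sources used here give nothing, and reads of overlapping, antisense and near-identical genes cannot be told apart. Totals were 18749380 to 22146647 counts per library in the 8 libraries, and precision is lowest for genes with few counts.

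Groups were taken from the treatment labels. Genes were kept by filterByExpr with a minimum count of 10, scaled by TMM and tested with edgeR 4.0.16 (R 4.3.3, limma 3.58.1) in a quasi-likelihood fit of 8 group means over all 32 libraries, two-sided, with Benjamini-Hochberg adjustment over 15254 genes and a threshold of 0.05. Every adjusted p in the text is from that fit unless another is named. The others are the replicate block, a left-out library and the 8 libraries alone, all with the same edgeR test, and DESeq2 1.42.0. Errors of log2 fold changes are the fold change divided by the square root of F. In simulated counts for this contrast, over 14445 genes, 43 of 50 raised by 1 on the log2 scale were recovered. So were 48 of 48 raised by 2, 37 of 49 lowered by 1 and 51 of 53 lowered by 2, with 5 false calls. Counts were drawn independently around the si-control means, with the spread set by its fitted trend with level. Only genes at 1 CPM or more were changed. The draws held no difference between replicate pairs, so they do not give the recovery or the false calls of the real libraries.

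Same-numbered IFNγ and si-control libraries deviated together from their group means (correlations of 0.434 to 0.508 for the 4 pairs). Libraries of different numbers did so about as well within replicates 1 and 2 (0.388 and 0.402) and within 3 and 4 (0.486 and 0.489), while correlations across were -0.485 to -0.397, so the numbers separate chiefly these 2 sets. The number was taken as a pairing, from the data, and its block is given where it changes a call. Members and lists were chosen with earlier results of these data known. Named genes are a fixed core set, the 15 largest rises and 15 largest falls without overlap at 1 CPM or more, up to 6 called genes of each list with up to 2 of the opposite direction, the 5 most abundant of each direction, and the 5 largest differences from TNF and from si-dnmt. List members that were not called or rank lower were chosen after their values were seen. Alternatives were other scaling, DESeq2, no low-count filter, the 8 libraries alone, the replicate block, either pair of replicates, each library left out and the merged table by symbol. Promoter sequences are from RefSeq (GRCm38), matched by symbol for 10527 of 15249 symbols tested (69.0%). A few genes are not reported here.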

Additional observations from a re-analysis of the deposited data

Results flagged for a closer look

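A test of the difference in IFNγ response between the siRNAs, the interaction in edgeR's quasi-likelihood fit, set 7 genes apart, each with a smaller rise in si-dnmt than in si-control. The difference on the log2 scale was -2.93 for Zbp1 (adjusted p = 5.90e-04), -2.84 for Gm12250 (adjusted p = 0.00383) and -1.86 for Gbp8 (adjusted p = 0.0396). It was -1.86 for Psmb9 (adjusted p = 5.90e-04), -1.85 for Apol10b (adjusted p = 4.02e-05), -1.47 for Gbp2 (adjusted p = 0.0320) and -0.76 for Ube2l6 (adjusted p = 0.0477). Gm12250 stood at 0.986 ± 0.738 CPM in si-control and at 6.70 ± 1.54 CPM in si-dnmt without cytokine, and at 474 ± 109 CPM and 437 ± 106 CPM with it (SD, n = 4). Apol10b, an apolipoprotein L family member, was at 1.74 ± 0.679 CPM and 7.63 ± 0.997 CPM without IFNγ and at 149.8 ± 20.5 CPM and 181 ± 10.7 CPM with it.

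In 2 of 310 groups of 4 libraries examined for the named genes, or 0.645%, 1 library lay far from the others. Chance alone gives about 1 in 20 where the libraries of a group are alike and independent. Here replicates 1 and 2 stood apart from replicates 3 and 4, so that rate is no background for this share. Irf2 was at 44.4 CPM in si-control replicate 2, above 38.6 to 38.9 CPM in the others. Cx3cl1 was at 6.94 CPM in si-control replicate 1, below the others, the lowest of which had 11.5 CPM.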

How the results depend on the processing

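The 1299 genes called higher stayed within 1.5 times that number under every alternative except replicates 1 and 2 alone, which gave 2176. They were 1917 with the replicate block and 1040 to 1252 when 1 library was left out. The 896 called lower were less stable: 549 without the low-count filter, 520 from the 8 libraries alone, 1933 with the replicate block, 1727 from replicates 1 and 2 and 1533 from replicates 3 and 4. Leaving out 1 library gave 596 (without si-control replicate 2) to 898. Genes changed at least 2-fold, 865 in all, numbered 750.0 to 864 when 1 library was left out. The share of higher calls was 59.2%, and ranged from 49.8% with the block to 66.7% without the filter. The si-dnmt response of 1371 genes went to 2861 with the replicate block, 2997 from replicates 1 and 2 and 2466 from replicates 3 and 4. The 7 interaction genes became 14 with DESeq2 size factors, 35 with DESeq2, 59 with the replicate block, 276 from replicates 1 and 2 and 155 from replicates 3 and 4. The log2 change with IFNγ was higher in si-dnmt than in si-control for 0 of the 35 and 3 of the 59. It was higher for 43 of the 276 and 52 of the 155, so the direction was not the same in every fit. Of 2556 values of the 160 named genes under the alternatives, 2431 kept direction and call, 111 lost the call, 8 gained it, 6 uncalled values changed sign and 0 called ones did. With the replicate block, Ifngr2 and Jak1 changed call among these 160, and so did other list members described above, among them Socs2, Cd80, Ifi30, Rsad2, Ifit1, Ccl2, C3, Kdr, Dll4, Col4a1, Acta2 and Top2a. The causes were not tested, other than that fewer libraries enter some fits. Genes with 3 counts or fewer in each library of a group have no stable fold.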
